A study of Homo sapiens with 6 samples.

Results

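The AP-1 and immediate-early genes FOS, FOSB, FOSL1, FOSL2, JUN, JUNB, JUND, EGR1, MYC and IER3 were compared between T98G and U87MG, a pair of established human glioblastoma cell lines. They were taken as every probe set (a group of short probes for 1 transcript) whose platform annotation names 1 of the 10 genes, which gave 18 probe sets. All 10 genes were measured, among 11963 in all. Each line was hybridised to 3 Affymetrix arrays, and the labels record growth in serum-supplemented medium and no drug, transfection or genetic change in either line. U87MG is labelled as resisting apoptosis under bortezomib, which blocks the proteasome, and under G5, which blocks isopeptidases that remove ubiquitin, while dying by necrosis under G5. T98G is labelled with the opposite behaviour, apoptosis by both compounds and partial protection from necrosis. The labels do not say how long after feeding the cells were collected, nor whether separate cultures lay behind the 3 arrays of a line. The tests therefore rest on array-to-array spread alone, which may be technical.

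AP-1 is a dimeric transcription factor in which a JUN protein pairs through a leucine zipper with another JUN protein, a FOS protein or a related bZIP protein, and binds short palindromic DNA sites. FOS, FOSB, JUN, JUNB, EGR1, MYC and IER3 are classic immediate-early genes, transcribed within minutes of serum, growth factor or stress signals, and their messengers are short-lived. For some of them, such as FOS and EGR1, the signals act through MAP kinases and the serum response factor SRF. FOSL1 and FOSL2, which encode FRA-1 and FRA-2, accumulate later and persist while ERK signalling lasts. FOSL1 is linked to the mesenchymal state and to invasion in glioma. IER3 differs from the other members in that its product is not a DNA-binding factor but a stress-inducible regulator of survival and ERK signalling.

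RefSeq promoter windows of GRCh38.p14, which run from 250 bases before to 50 bases after the start of a gene, were at hand for 7 of the 10 members. They were searched on both strands for the AP-1 site TGACTCA, the cyclic AMP response element TGACGTCA, the JUN-type variant TGACATCA, the CArG box bound by SRF, the EGR site GCGTGGGCG and the TATA box TATAAA. The first stretches show the AP-1-like site of each of the JUN, JUND and FOSL2 windows and the CArG boxes of EGR1, with matches in capitals and all sequences on the strand of the gene. JUN is at chr1:58784048-58784157 (minus strand), JUND at chr19:18281793-18281842 (minus), FOSL2 at chr2:28392850-28392871 (plus) and EGR1 at chr5:138465349-138465418 (plus).
JUN: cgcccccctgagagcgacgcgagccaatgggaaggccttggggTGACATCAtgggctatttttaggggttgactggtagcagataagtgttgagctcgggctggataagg
JUND: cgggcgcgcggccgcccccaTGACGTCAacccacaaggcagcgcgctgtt
FOSL2: gtgccattgtagTGACTCAtct
EGR1: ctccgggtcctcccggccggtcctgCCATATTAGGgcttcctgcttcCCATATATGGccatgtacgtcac

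The site in the JUN window began 67 bases before the start, and that in the JUND window 200 bases before it. The FOSL2 site lay just past the start, at bases 5 to 11 of the transcript. The CArG boxes of EGR1 began 105 and 83 bases before the start. Of all 35116 windows, 2.61% held TGACATCA, 1.85% TGACGTCA, 4.95% TGACTCA, 1.29% a CArG box and 0.795% the EGR site, which no member's window held. The other stretches show the TATA boxes of FOS at chr14:75278778-75278817, FOSB at chr19:45467946-45467985 and JUNB at chr19:12791436-12791475, all on the plus strand, which began 33, 30 and 31 bases before the start. These letters stood in 11.5% of all windows and in none of the JUN, JUND, FOSL2 and EGR1 windows. A match is a description of the sequence and does not show that a factor binds there.
FOS: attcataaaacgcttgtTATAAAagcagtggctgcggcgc
FOSB: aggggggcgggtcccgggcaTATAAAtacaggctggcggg
JUNB: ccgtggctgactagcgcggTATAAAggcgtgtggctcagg

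Values below are log2 signal per probe set as deposited, a level where a line is named and a difference where U87MG minus T98G is given, with means ± SD over 3 arrays. Array medians were 7.55 to 7.65, and arrays of 1 line correlated at 0.990 to 0.997 across probe sets against 0.934 to 0.939 between lines. The difference between the 3' and 5' control probe sets of ACTB was 0.38 to 0.68 in T98G and 0.35 to 0.61 in U87MG, and that of GAPDH 0.05 to 0.13 and 0.14 to 0.17. The mean of the poly-A spike-in controls was lowest in U87MG replicate 3, at 5.30, and 6.10 to 6.84 elsewhere. Of the glial and progenitor markers, GFAP had 6.42 ± 0.04 in T98G and 6.52 ± 0.04 in U87MG, both under the median probe set mean of 7.63, and S100B 4.13 and 4.23, while vimentin (VIM) had 14.59 and 14.85. Of 6 glial markers 1 was called, SLC1A3 with 8.0 in T98G and 9.04 in U87MG, and of 4 progenitor markers 1, nestin (NES) with 6.34 and 8.89. Limma called 0 of 14 markers of leukocytes, epithelium, endothelium and melanocytes, and 1 of them, EPCAM, had an unadjusted p under 0.05. EPCAM read 4.36 and 5.25, and its adjusted p in limma was 0.00161 as well. Its 1.85-fold difference, without overlap between the lines, fell short only of the 2-fold minimum. Their summed levels were 8.52 to 8.65 in T98G and 8.45 to 8.65 in U87MG for leukocytes, 5.87 to 5.98 and 6.15 to 6.41 for epithelium, 6.76 to 6.89 and 6.77 to 6.99 for endothelium, and 7.85 to 8.04 and 7.89 to 8.10 for melanocytes. Whether RNA quality or other cells have a part in the member differences was not tested. Fewer expressing cells and less RNA per cell cannot be told apart on these arrays.

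IER3, JUN and FOSL1 were higher in U87MG by at least 2-fold, and no member was lower by that much. All 7 FOS and JUN family genes had a higher mean in U87MG, while EGR1 and MYC had a higher mean in T98G. A gene was called where limma's adjusted p (Benjamini-Hochberg over all genes) was under 0.05 and the difference at least 2-fold, each gene being represented by its brightest probe set. On that rule 3 of 10 members were called, all of them higher, against 13.6% of all genes called in either direction, 6.56% called higher and 7.01% called lower. Another 4 members, JUND, FOSL2, JUNB and EGR1, had an adjusted p under 0.05 without reaching 2-fold. That makes 7 of 10 at an adjusted p under 0.05, where 41.3% of all genes lay, and 6 of them higher in U87MG, where 19.7% of all genes lay. The arrays of the lines did not overlap for 8 members, against 52% of all genes. The median difference of the members was 0.67, beside -0.01 over all genes.

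**Figure D1:**
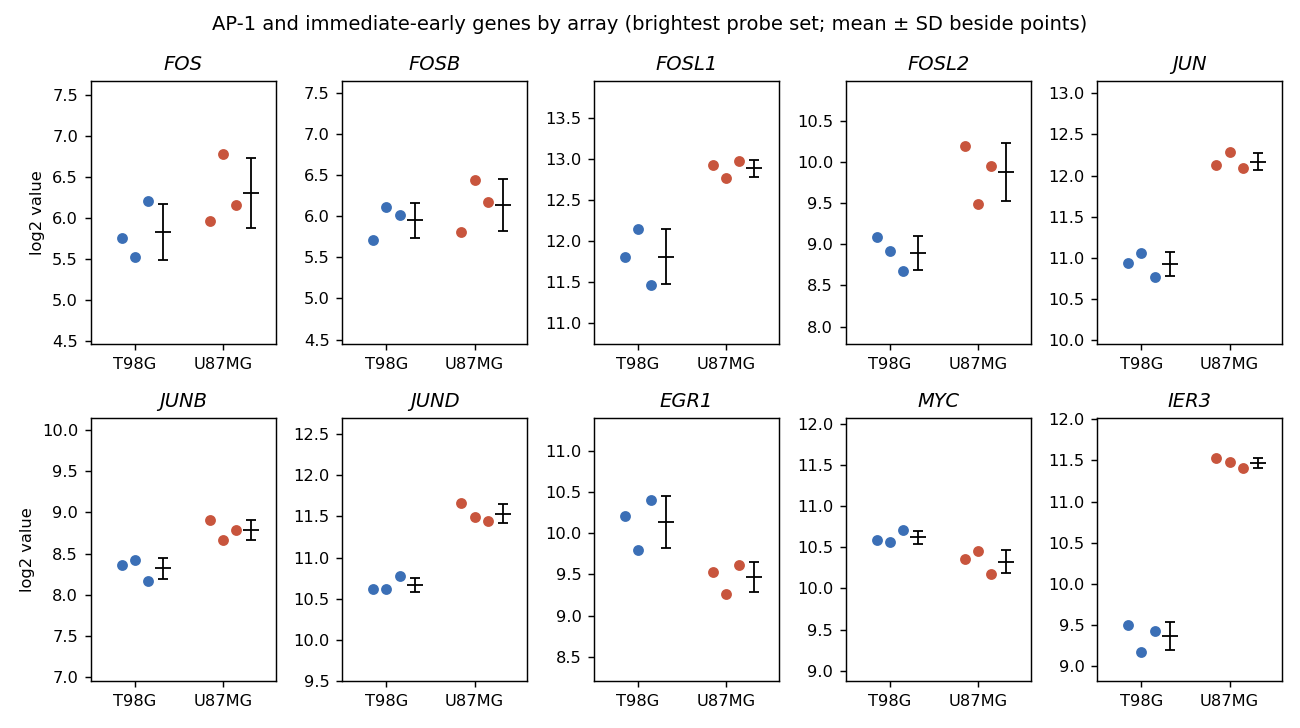
Log2 values of the 10 genes on each array, on the brightest probe set of each gene, with T98G in blue, U87MG in red and the mean ± SD (n = 3) beside the points. Every panel spans the same range of log2 units around its own centre, so the gap between lines can be compared between panels and the level cannot; IER3 and JUN show the widest gaps, and FOS and FOSB overlap.

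JUN, the prototype subunit that gives AP-1 dimers much of their transactivating strength, had 10.94, 11.06 and 10.77 in T98G and 12.13, 12.29 and 12.09 in U87MG. All U87MG arrays lay above all T98G arrays, with 1.03 log2 units between the nearest arrays. The difference was 1.24 (SE 0.11, 95% interval 0.99 to 1.5, limma adjusted p = 1.78e-05), or 2.37-fold. JUN had 4 probe sets, at 0.84, 1.24, 1.44 and 1.54, of which 3 were called. The uncalled one, 213281_at, read 7.46, 7.74 and 7.27 in T98G and 8.37, 8.09 and 8.51 in U87MG, and did not overlap either. It is also the only JUN probe set whose identifier does not mark it as matching several transcripts, so the JUN call was lost where such probe sets were removed (0.84, adjusted p = 0.00143). On 201465_s_at, U87MG replicate 3 read 7.84 against 8.61 and 8.86 on the other arrays of its line.

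JUND, a subunit that is present in resting cells and can restrain growth, had 10.62, 10.62 and 10.77 in T98G and 11.66, 11.49 and 11.44 in U87MG. The lines did not overlap, and the difference was 0.86 (0.62 to 1.10, adjusted p = 1.37e-04), or 1.81-fold, short of the 2-fold minimum. The remaining JUND probe sets, 203751_x_at and 214326_x_at, had differences of 1.13 and 1.15 and were called. On the mean of its 3 probe sets JUND was called as well, at 1.04. JUNB, which is induced by many signals and often opposes JUN, had 8.37, 8.42 and 8.17 in T98G against 8.91, 8.66 and 8.78 in U87MG. Its lines were separated by 0.24, and the difference of 0.47 (0.21 to 0.72, adjusted p = 0.00828) was 1.38-fold. Of the JUN family, JUN was thus the only member called on its brightest probe set.

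FOSL1, the FRA-1 gene, had 11.81, 12.14 and 11.47 in T98G and 12.92, 12.77 and 12.97 in U87MG. The T98G arrays were spread more widely (SD 0.34 against 0.10), and the nearest arrays of the lines were 0.64 apart. The difference was 1.08 (0.72 to 1.45, adjusted p = 4.55e-04), or 2.12-fold. Without T98G replicate 3, the lowest T98G array, the difference was 0.91 and no longer 2-fold, at an adjusted p of 0.00126. FOSL2, the FRA-2 gene, lay on the other side of the same limit. Its brightest probe set read 9.09, 8.91 and 8.68 in T98G and 10.19, 9.49 and 9.95 in U87MG, without overlap. The difference was 0.99 (0.58 to 1.39, adjusted p = 0.00162), or 1.98-fold, and the other FOSL2 probe sets had 0.87 and 0.70. U87MG replicate 2 was the lowest array of its line on all 3 FOSL2 probe sets, and without it the gene was called at 1.18. It was also called without T98G replicate 1 (1.08).

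FOS and FOSB, the members that serum and stress induce most sharply, overlapped between the lines and had adjusted p-values above 0.05. FOS had 5.76, 5.53 and 6.20 in T98G and 5.97, 6.78 and 6.16 in U87MG. The highest T98G array exceeded the U87MG arrays of replicates 1 and 3, and the difference of 0.47 had an interval of -0.03 to 0.98 (adjusted p = 0.130). FOSB had 5.71, 6.12 and 6.02 in T98G and 5.81, 6.44 and 6.17 in U87MG, also overlapping, with a difference of 0.19 (-0.19 to 0.57, adjusted p = 0.432). Each had a single probe set whose means in both lines were under the median probe set mean of 7.63, and neither passed the filter on dim probe sets. The intervals include 0 but also differences of up to 0.98 for FOS and 0.57 for FOSB, so they do not show equal levels.

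**Figure D2:**
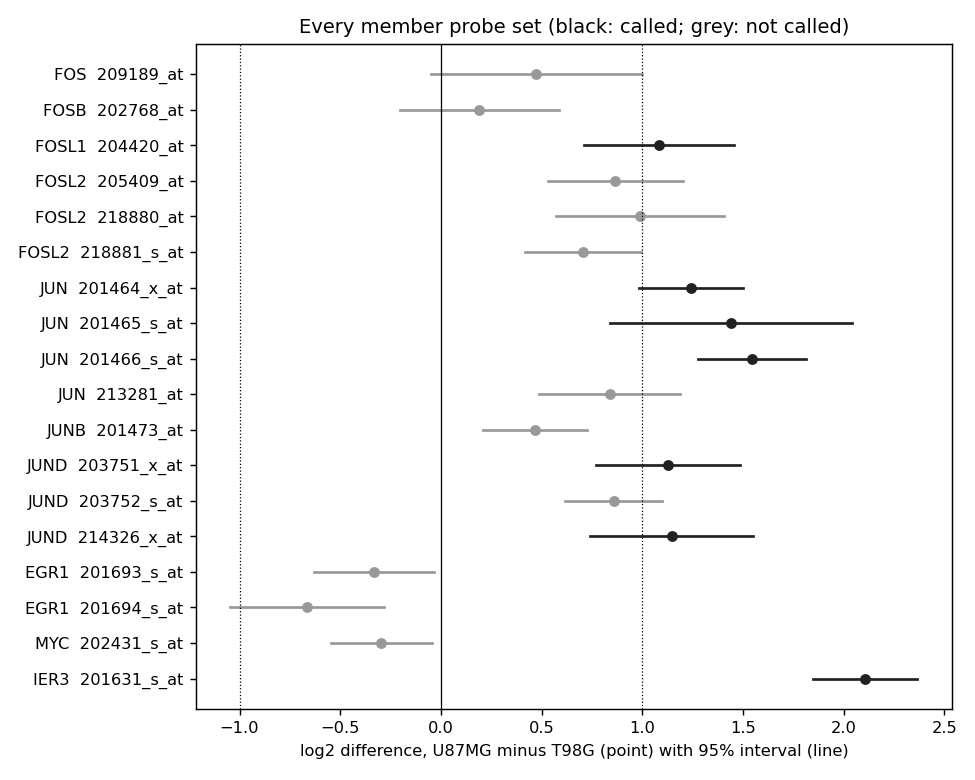
Difference between U87MG and T98G in log2 units for each of the 18 probe sets, with the 95% interval from limma as a line; dotted lines mark 2-fold, and black marks the 7 probe sets called. The 15 probe sets of the FOS and JUN genes and of IER3 lie above 0 and the 3 of EGR1 and MYC below it, and the brightest probe set of FOSL2, at 0.99, lies just inside the 2-fold line.

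EGR1, a zinc finger factor that serum and growth factors induce through SRF, was the one member with an adjusted p under 0.05 that was lower in U87MG. It had 10.21, 9.79 and 10.41 in T98G and 9.53, 9.27 and 9.62 in U87MG, with 0.18 between the nearest arrays. The difference was -0.66 (-1.04 to -0.29, adjusted p = 0.00903), a 1.59-fold higher level in T98G and under the 2-fold minimum. Its dimmer probe set, 201693_s_at, had 6.97, 6.63 and 6.89 in T98G and 6.42, 6.70 and 6.39 in U87MG, where the lines overlapped, and a difference of -0.33 (adjusted p = 0.0788 over all probe sets). MYC, a bHLH factor that drives growth and ribosome production, had 10.59, 10.56 and 10.71 in T98G against 10.36, 10.45 and 10.17 in U87MG. The lines did not overlap, but the gap was 0.11 and the difference of -0.30 (-0.54 to -0.05) had an adjusted p of 0.0566. With dim probe sets removed, limma's adjusted p for MYC was 0.0428, and with the probe sets of each gene averaged 0.0484. It stayed above 0.05 under the other alternatives.

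IER3 had the largest difference of the 10 genes. It read 9.50, 9.17 and 9.43 in T98G and 11.53, 11.48 and 11.41 in U87MG, so the U87MG arrays lay close together (SD 0.06) and at least 1.91 above every T98G array. The difference was 2.11 (SE 0.11, 1.85 to 2.36, adjusted p = 4.55e-07), or 4.30-fold. It rested on a single probe set marked as matching several transcripts. Over the 6 arrays the genes whose centred values lay nearest to those of IER3 were KLHL3, RTN1 and ZNF215, with root-mean-square distances of 0.080, 0.081 and 0.084 log2 units. KLHL3 is a substrate adaptor of a cullin ubiquitin ligase and RTN1 a reticulon of the endoplasmic reticulum. The likeness is mostly that of the difference between lines, which was 2.12 for KLHL3, 2.12 for RTN1 and 2.20 for ZNF215.

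Fitted probe set by probe set, 7 of the 18 were called, all higher in U87MG, beside 12.3% of all probe sets called in either direction. They belonged to JUN (3), JUND (2), FOSL1 and IER3. Probe sets of 1 gene share their transcript and are not independent, but no member had probe sets of opposite sign. Within the lines the arrays also took up unequal places. T98G replicate 3 was the lowest array of its line for 11 of the 18 probe sets, against 31.1% of all probe sets, and T98G replicate 2 the highest for 11, against 31.5%. The 4 probe sets with T98G replicate 3 as the highest were those of FOS, MYC, EGR1 (201694_s_at) and JUND (203752_s_at). In U87MG, replicate 2 was lowest for 9 of the 18, against 26.0% of all probe sets, and highest for 7, against 29.3%.

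**Figure D3:**
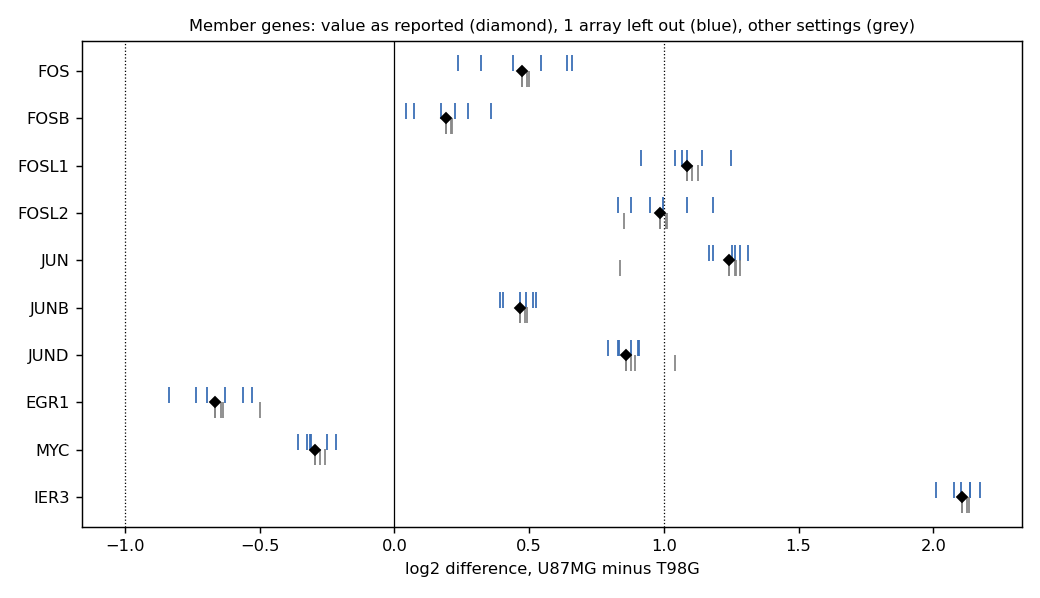
Difference between U87MG and T98G for each member as reported (diamond), with 1 array left out (blue ticks) and under the other settings (grey ticks), in log2 units. Grey ticks of settings that left the value unchanged stand at the value of the diamond. No tick crosses 0; those of FOSL1, FOSL2, JUN and JUND lie on both sides of the 2-fold line at 1, and IER3 stays between 2.01 and 2.17.

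Genes that act with the members were taken from lists, described by counts and medians with no test of the list. Of 19 measured bZIP genes that pair with AP-1 proteins or resemble them, 3 were higher in U87MG, 2 lower and 14 neither (median difference 0.12). That was a called share of 26.3%, beside 13.6% of all genes, 6.56% called higher and 7.01% called lower. CREB5 was 6.06-fold higher (7.27 ± 0.60 against 4.67 ± 0.09), MAFF, a small MAF protein without a transactivation domain, 3.13-fold higher, and CREM, a cyclic AMP responsive factor, 2.70-fold higher, with CREM probe sets from 0.51 to 2.29. MAF was 5.00-fold lower (5.25 ± 0.27 against 7.57 ± 0.37), with 2 of its 3 probe sets called, and NFE2L2, the oxidative stress factor NRF2, 3.49-fold lower (10.51 ± 0.52 against 12.32 ± 0.14). CREB5 and MAF did not pass the filter on dim probe sets. Without U87MG replicate 1, NFIL3 was lower as well, at -1.17. Removal of multiply matching probe sets left only MAFF among the higher genes.

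Among 32 measured immediate-early genes other than the members, 7 were higher in U87MG, 3 lower and 22 neither, a called share of 31.3% (median 0.29). ARC, an effector of neuronal activity, was 11.5-fold higher, at 5.74 to 6.07 in T98G and 9.16 to 9.69 in U87MG. PTGS2, the inducible cyclooxygenase, was at least 5.98-fold higher, a bound because 1 T98G array read below the brightest trp control value of 4.03, a bacterial transcript, and it did not pass the filter on dim probe sets. DUSP1, which dephosphorylates JNK and p38, was 4.25-fold higher (11.40 ± 0.16 against 9.31 ± 0.25). CCN1 and CCN2, matricellular targets of SRF and YAP, were 5.69-fold and 3.16-fold lower, and RHOB, a stress-inducible GTPase, 3.94-fold lower. Other genes that like FOS respond to serum within minutes differed unequally. IER2 was called higher at 1.10, NR4A2 had 0.71 (limma adjusted p = 0.00229), NR4A1 -0.06 and EGR3 -0.09. NR4A2 and EGR3 were dim, at 4.49 and 4.75 in T98G and 5.20 and 4.66 in U87MG. Without multiply matching probe sets 4 genes were higher, because KLF2 and DUSP1 had no value and KLF6 was at 0.10. SGK1 was not called without U87MG replicate 2 (0.93), and KLF4 was called without T98G replicate 1 (1.03) or U87MG replicate 3 (1.10).

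Of 12 genes measured from the list of ERK feedback regulators, 4 were higher, 2 lower and 6 neither, a called share of 50% (median 0.45). SPRY2, an inhibitor of receptor signalling to RAS, was 15-fold higher (10.53 ± 0.03 in U87MG against 6.62 ± 0.31), and DUSP6, the phosphatase of ERK, 7.71-fold higher (10.15 ± 0.03 against 7.20 ± 0.60), on all 3 of its probe sets. SPRY4 was 3.47-fold higher, and SPRED2, which also restrains RAS signalling, was higher at 1.61. The higher genes numbered 3 without multiply matching probe sets, where SPRY4 had no value, and 3 with all probe sets of each gene averaged, where SPRED2 had 0.97. DUSP10, on the list although it is a phosphatase of JNK and p38, was 2.41-fold lower, with -0.83 and no call on its other probe set. SPRY1 was 5.57-fold lower (5.77 ± 0.32 against 8.25 ± 0.36). The Sprouty genes therefore did not differ in 1 direction.

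Of 28 measured genes of the MAP kinase cascades, 2 were higher, 2 lower and 24 neither (14.3% called, median 0.12). MAPKAPK3, a kinase downstream of p38, was 7.68-fold higher (12.29 ± 0.20 against 9.35 ± 0.04), and MAP2K5 2.24-fold higher on its brightest of 6 probe sets, which ran from -0.19 to 1.16. MAP2K6, an activator of p38, was 3.53-fold lower, with -0.45 on its other probe set, and MAPK12, a p38 isoform, 2.79-fold lower. Without U87MG replicate 3 a further 2 genes were higher, RPS6KA2 at 1.0 and RPS6KA3 at 1.02, and the latter also without T98G replicate 1 (1.02). Removal of multiply matching probe sets ended the calls of MAP2K5 (0.76) and MAP2K6 (-0.45). With all probe sets of each gene averaged, MAP2K5 was not called either (0.46). RPS6KA2, with probe sets at 0.93 and 2.23, was then called at 1.58. Of 8 measured genes among SRF, its partners and the EGR1 co-repressors, 1 was higher, 0 lower and 7 neither (12.5% called). NAB1, which binds EGR1 and represses its targets, was 4.59-fold higher on the brightest of 3 probe sets (10.08 ± 0.14 against 7.88 ± 0.23), the only one called, and the lowest of the 3 had 0.38. MRTFA, a co-activator of SRF, had -0.98 and reached 2-fold without T98G replicate 1, U87MG replicate 1 or U87MG replicate 3 (each -1.0). SRF itself had a difference of 0.30.

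Genes described as AP-1 targets differed in both directions, with 10 higher, 5 lower and 13 neither of 28 measured (53.6% called, median 0.36). EREG, an EGFR ligand, and SPP1, osteopontin, had the widest differences upward, at least 299-fold (a bound by the same floor) and 33.2-fold, followed by PTGS2. KRT18, a keratin with many processed copies in the genome, was 44.7-fold lower, the chemokine gene CCL2 12.5-fold lower (6.82 ± 0.07 against 10.47 ± 0.31), and the collagenase gene MMP13 9.68-fold lower. The collagenase MMP1, a textbook AP-1 target, was lower at -2.68, while the stromelysin MMP3, another, was higher at 2.36 (13.46 ± 0.02 in U87MG against 11.11 ± 0.73). These targets answer to other factors too, and the share called does not measure AP-1 activity. Removal of multiply matching probe sets left 8 higher and 3 lower genes: SPP1, CXCL8, VEGFA, CCL2 and KRT18 had no value, and TGFA was called.

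On its brightest probe set, no MYC partner or target reached the 2-fold minimum. Of 13 measured partners and antagonists limma called 0, while 7 had an unadjusted and 6 an adjusted p under 0.05. Over all genes 13.6% were called and 41.3% had an adjusted p under 0.05, so such counts alone do not set a list apart. MAX, the obligate partner of MYC, had a difference of 0.61 and MXI1, which competes for MAX, -0.85, the latter passing 2-fold without U87MG replicate 1 (-1.03). MAX had 5 probe sets from 0.59 to 1.0, and 1 of these was called. Of 22 measured MYC target genes limma called 0, while 10 had an unadjusted and 6 an adjusted p under 0.05, and the median difference was -0.13. NME1, a nucleoside diphosphate kinase, had -0.53 and E2F1, a cell cycle factor, 0.85. Of 11 measured ubiquitin ligases and isopeptidases that act on JUN, FOS or MYC, limma called 0, while 6 had an unadjusted and 5 an adjusted p under 0.05. SKP2, a ligase subunit for MYC, had -0.69 (10.30 ± 0.14 against 10.99 ± 0.08) and TRIB2, a pseudokinase adaptor, -0.67. The 3 probe sets of SKP2 ran from -0.69 to -0.04.

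**Figure D4:**
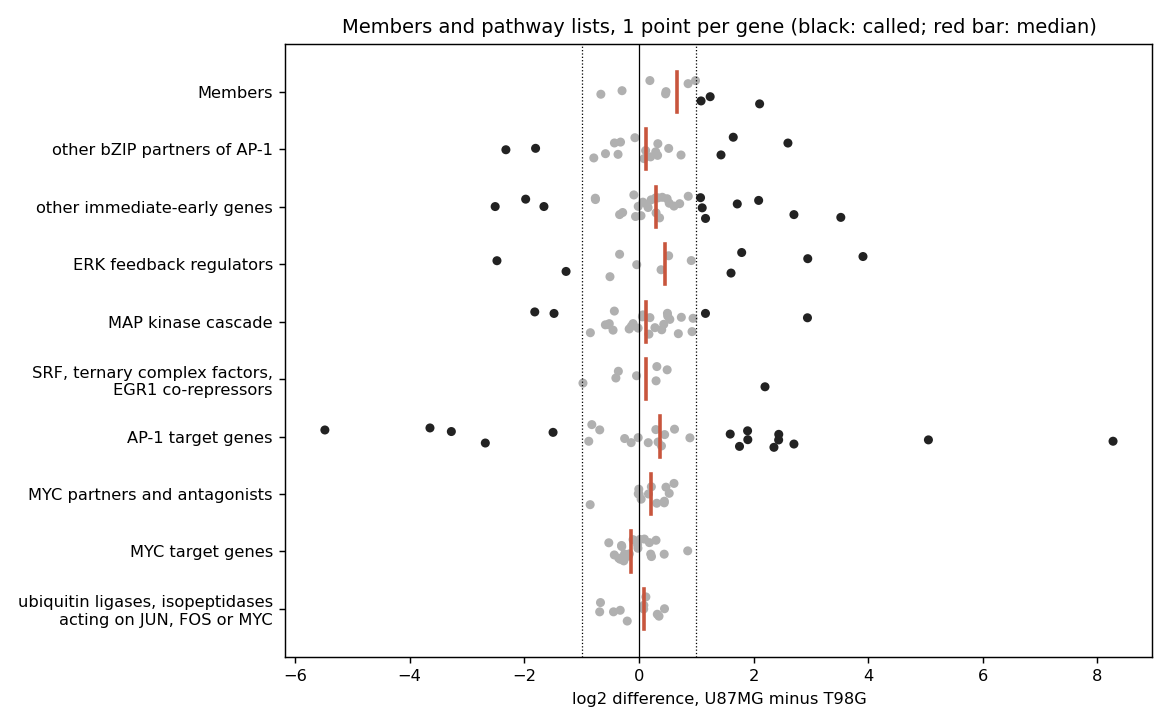
Difference between U87MG and T98G in log2 units for the 10 members and for each list, 1 point per measured gene, with called genes in black, others in grey and the median as a red bar. The member median is 0.67, AP-1 targets and ERK feedback regulators hold called genes on both sides, and the MYC and ubiquitin lists hold none. Over all genes 13.6% were called.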

How the data were processed

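The values are log2 signals that the authors deposited for each probe set. The submitters' processing notes list RMA and limma, but their versions and order are not given in the sources used here. This kind of processing equalises arrays and summarises probes, so a difference in total RNA is not visible and dim transcripts are compressed. Probe sets were named by the platform annotation of 2016, with symbols updated through Entrez identifiers. Of 22277 probe sets, 62 were controls and 19064 had 1 gene, of which 19052 matched RefSeq, while 1043 had several genes and 2108 none.

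Differences are U87MG minus T98G, fitted over all 6 arrays with lmFit and eBayes of limma 3.58.1 under R 4.3.3 (two-sided tests), with Benjamini-Hochberg adjustment over 11963 genes or 22215 probe sets. The number of arrays limits the precision, with a median residual SD of 0.146. Alternatives left out each array, dim probe sets (both means under the median of 7.63) or multiply matching ones (identifiers in _a_at, _s_at or _x_at), averaged a gene's probe sets, normalized again, or changed the threshold, the variance model or the block. The steps were tested on simulated data. Members and lists were chosen with earlier results of these data known. Named genes were all members, up to 3 called genes per direction of each list or, with none, the 2 of smallest p, and the nearest patterns. SGK1, KLF2, KLF4, KLF6, RPS6KA2, RPS6KA3, NFIL3, EGR3, NR4A1, NR4A2, IER2, SPRED2, CXCL8, VEGFA, MRTFA, SRF, MMP1, MMP3 and TGFA were named after their values were seen.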

Additional observations from a re-analysis of the deposited data

How the results depend on the processing

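Of 154 pairs of a member gene and 1 of 16 alternatives, 143 kept both direction and call, and 0 changed direction. Alternatives that changed only the threshold, the variance model or the block left the difference as it was, so direction could not change there. The called members numbered 7 and the called probe sets 14 with no minimum fold, and 1 and 1 where multiply matching probe sets were removed, which left JUND, EGR1, MYC and IER3 without a value. Without 1 array the called members numbered 2 to 4 and the called probe sets 5 to 8. FOSL2 was called after repeated centring (1.01) and after repeated quantile normalization (1.01). The 170 list genes held 40 calls, 103 with no minimum fold and 28 without multiply matching probe sets. With the replicate number as a block, 3 members, 7 probe sets and 40 list genes were called, and no call of a member changed. The labels give same-numbered arrays of the lines nothing in common but the number. Their deviations correlated at 0.153, 0.0763 and 0.0813, and all 6 arrays correlated best with their own number. Whether same-numbered arrays shared a batch is not stated and was not tested. No member or array needed the bound set for dim lines, since every member value lay above the trp controls (3.32 to 4.03). With 3 arrays a line, differences of FOS and FOSB smaller than their intervals could not be resolved.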

Other observations

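Among the FOS and JUN genes with a promoter window, those with TATAAA were FOS, FOSB and JUNB, which had differences of 0.47, 0.19 and 0.47. JUN, JUND and FOSL2, without these letters, had 1.24, 0.86 and 0.99. EGR1, the remaining member with a window, also lacked them and had -0.66. FOS and FOSB were dim, and their intervals included 0. The division was seen after the values were known and was not tested.

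The probe sets of TGFA, a ligand of EGFR listed among the AP-1 targets, disagreed. The brightest had a difference of 0.45 and was not called, while another reached 4.30 and stood for the gene when dim or multiply matching probe sets were removed. U87MG replicate 3 stood apart from the other arrays of its line for CREB5, at 6.57 against 7.60 and 7.63.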
